A study of Mus musculus with 577 samples.

Results

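Growing oocytes of the mouse ovary were cut into serial sections, and the RNA of 2 sections of the same cell was read in separate libraries. All libraries labelled as a section of a numbered oocyte were taken, which gave 16 sections of 8 oocytes (oocytes 01 to 04 and 06 to 09, each with section 1 and section 2) out of 577 samples in the series. The ovaries came from 8-week-old female mice, for which the labels name neither a strain nor an individual, so oocytes of 1 animal and of several animals cannot be told apart. They were snap-frozen, cryosectioned at 15 µm, fixed and stained with cresyl violet in isopropanol, and cells were cut out by laser capture microdissection (LCM), in which a laser isolates a chosen cell from a section under the microscope. The labels class these oocytes as Secondary-antral, the follicle stage, and whether both sections of a cell held its nucleus is not given in the sources used here. Each section was lysed by DRaqL, a detergent lysis that is quenched before reverse transcription, and amplified by SC3-seq, which reads the 3′ ends of polyadenylated RNAs. No treatment or genotype separates the sections. The comparisons asked which RNAs differed between cells by more than between sections of the same cell, and whether section 1 and section 2 differed.

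During its growth phase an oocyte builds up RNAs that it will use after transcription stops, at meiotic maturation and in the early embryo. The zona pellucida proteins form the glycoprotein coat of the oocyte, the secreted factors Gdf9 and Bmp15 act on the surrounding granulosa cells, and the subcortical maternal complex is a protein assembly under the oocyte membrane that the early embryo needs. The Obox genes are a cluster of homeobox genes that are transcribed in oocytes and early embryos. Zona genes are known targets of FIGLA, a factor that binds E-boxes, DNA motifs with the letters CANNTG.

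The RNAs that differed more between oocytes than between sections included those of the zona and Obox genes, which ran in opposite directions over the 8 cells. To show the DNA in front of such genes, the 300 bases around the start sites of Zp3, Padi6 and Obox1 are printed 5′ to 3′ on the coding strand from RefSeq (GRCm38.p6), with each CANNTG in capitals. Zp3 is a zona gene, Padi6 encodes a protein of the oocyte lattices that is often grouped with the subcortical maternal complex, and Obox1 is a marker of growing oocytes. The windows are chr5:135979855-135980154 on the plus strand for Zp3, chr4:140742594-140742893 on the minus strand for Padi6 and chr7:15547007-15547306 on the plus strand for Obox1.
Zp3: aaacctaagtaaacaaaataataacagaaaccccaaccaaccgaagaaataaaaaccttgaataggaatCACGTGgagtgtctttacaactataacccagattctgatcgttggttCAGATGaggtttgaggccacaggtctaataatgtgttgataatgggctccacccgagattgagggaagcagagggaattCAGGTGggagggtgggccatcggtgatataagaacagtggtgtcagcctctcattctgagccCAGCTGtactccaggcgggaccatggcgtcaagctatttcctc
Padi6: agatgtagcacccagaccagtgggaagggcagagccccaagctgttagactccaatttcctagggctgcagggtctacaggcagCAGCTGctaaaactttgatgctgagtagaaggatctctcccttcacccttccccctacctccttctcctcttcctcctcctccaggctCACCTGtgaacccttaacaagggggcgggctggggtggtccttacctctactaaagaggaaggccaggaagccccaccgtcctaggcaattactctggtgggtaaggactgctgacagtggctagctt
Obox1: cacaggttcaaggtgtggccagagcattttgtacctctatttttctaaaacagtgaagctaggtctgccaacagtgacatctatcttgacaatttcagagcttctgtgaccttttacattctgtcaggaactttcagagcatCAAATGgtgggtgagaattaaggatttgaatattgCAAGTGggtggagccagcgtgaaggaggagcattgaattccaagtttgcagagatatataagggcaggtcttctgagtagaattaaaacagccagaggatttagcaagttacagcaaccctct
The fixed letters of CANNTG are the same on both strands, so 1 search counts both, and no match overlapped another in these windows. CANNTG occurred 4 times in the Zp3 window and 2 times each in those of Padi6 and Obox1, while 72.3% of 32851 RefSeq promoter windows of that length held at least 1 CANNTG, 39.6% held at least 2 and 6.49% at least 4. The homeobox core written TAATTG or TAATTA matched 1 time in the Padi6 window, on either strand, and not in the Zp3 and Obox1 windows, against 12.4% of all windows with a match. A match only gives the letters in a window and was not set against binding.

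Levels are given as log2 (RPM+1), in which RPM are reads scaled to a common total on protein-coding genes. They describe 1 gene across libraries, since reads were not scaled by gene length. The sections held 4232302 to 17506401 coding reads (median 5583440) and 13140 to 16856 detected genes. The oocyte markers were high in all 16 sections: Zp3 ranged from 12.05 to 14.19, Gdf9 from 12.78 to 13.49 and Obox1 from 10.72 to 12.61. The summed level of 12 granulosa markers was 5.10 to 8.19, against 11.4 to 13.6 in 14 pools of 10 granulosa cells. The theca, blood and endothelial sums were at most 5.51, 6.77 and 5.61, and Lyz2 was the marker at 0 in all sections. Their medians were 2.82, 2.66 and 3.73, and the pools of granulosa cells had 2.54, 1.38 and 3.17. In the median these sums were thus not lower in the sections than in the pools. Reads per spike-in read, a measure of how much RNA of the section entered the reaction relative to the fixed amount of added ERCC RNA, was lowest in section 1 of oocyte 07 (14.7) and in both sections of oocyte 09 (22.03 and 36.3). The other 13 sections lay between 51.4 and 175, with section 2 of oocyte 07 at 56.2. Genes detected moved with this ratio over the 16 sections (r = 0.85, rho = 0.77), which share oocytes and sequencing depth. The calls between oocytes were therefore also examined without oocytes 07 and 09.

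The 2 sections of an oocyte resembled each other most in oocyte 02 and least in oocyte 09. Over the 7221 genes with a mean of at least 4, the root mean square difference between sections was 0.412 in oocyte 02, 0.552 in oocyte 01 and 0.611 in oocyte 04. It was 0.629 in oocyte 03, 0.661 in oocyte 06 and 0.741 in oocyte 08, and it reached 1.09 in oocyte 07 and 1.29 in oocyte 09. In oocytes 01, 02 and 08 this distance was below that to every section of another cell, whereas in oocytes 03, 04, 06, 07 and 09 at least 1 section of another oocyte lay nearer. The number of genes more than 2-fold apart between sections ran from 192 (2.66%) in oocyte 02 to 2348 (32.5%) in oocyte 09. The pairs with the largest distances were those with the fewest reads per spike-in read. The part of RNA input in these distances was not tested.

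**Figure D1:**
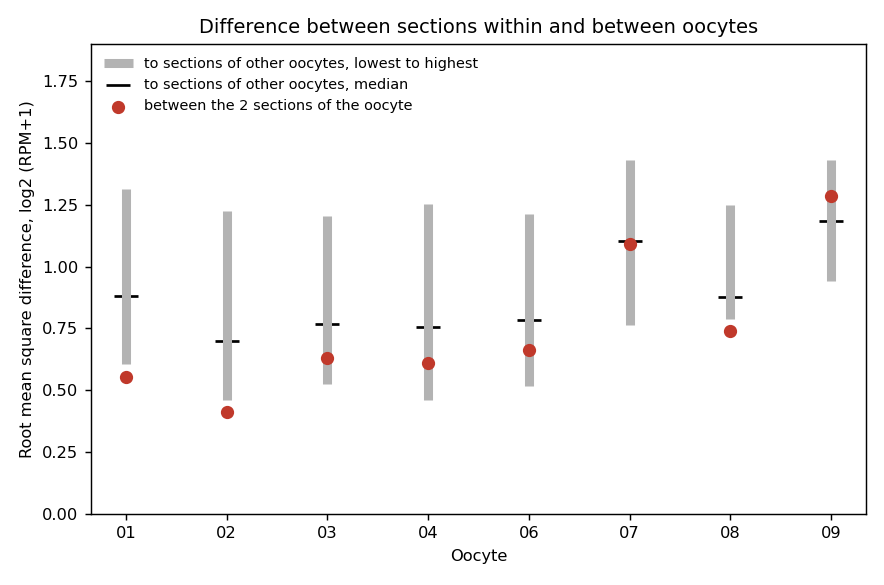
Root mean square difference in log2 (RPM+1) over 7221 genes between the sections of each oocyte and between its sections and those of the other oocytes. The distance within an oocyte ran from 0.412 in oocyte 02 to 1.29 in oocyte 09, and in oocytes 01, 02 and 08 it lay under all distances to other oocytes.

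Complete loss of an RNA from 1 section was rare. A gene with no read in 1 section and a level of at least 4 in the other was found for 26 genes with section 1 empty and 2 genes with section 2 empty in oocyte 09, 16 genes in oocyte 07 with section 1 empty, and 1 gene in oocyte 01. The other 5 oocytes had none. Pgp, a phosphatase of small metabolites, had 0 and 379 reads in the sections of oocyte 07, whereas the other 14 sections held 218 to 2459 reads. Prkab2, a regulatory subunit of AMP-activated kinase, likewise had 0 and 264 reads in oocyte 07 and 5 and 195 in oocyte 09. Both genes were present in every section of the other 6 oocytes.

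Section differences were also large for some moderately expressed genes without a zero. Serpinb6a, a protease inhibitor, was 6.65 and 1.23 in oocyte 09, while all other sections lay between 5.19 and 7.21. Ston2, an endocytic adaptor, was 2.79 and 7.22 in oocyte 09, and the remaining sections lay at 6.00 to 7.19. Trmt12, a tRNA modification gene, had the lowest intraclass correlation among the named genes (-0.86), with its largest section difference in oocyte 09, at 7.19 and 4.99. The intraclass correlation is the estimated share of the variance that lies between oocytes, and it turns negative when sections of a cell differ more than cells do. No gene of this paragraph and the one before it passed the test between oocytes.

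For most genes the larger estimated share of the variance lay between sections of a cell, with an intraclass correlation that did not exceed 0.5. For the 7221 genes with a mean of at least 4, the median SD between sections was 0.44 and the median SD of the 8 oocyte means was 0.40. The mean of 2 sections still holds part of the spread between sections, so the latter is not the spread between cells alone. The median intraclass correlation was 0.244. It exceeded 0.5 in 1884 genes (26.1%) and was negative in 2131 genes (29.5%). The spread between sections shrank with the level, and more so than the spread between cells. In the 4069 genes with a mean of 4 to 6 the median SD between sections was 0.57 and the median intraclass correlation 0.199. In the 90 genes with a mean of at least 10 these were 0.17 and 0.637.

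The spread between sections was also set beside the spread over single libraries of different cells, which holds the spread between libraries as well. The series holds 30 other secondary-antral oocytes and 14 primary oocytes that were captured and amplified by the same method and counted in a separate table. With every library thinned to 1309694 reads, 6795 genes had a mean of at least 4, and the median SD between sections was 0.45. The median SD over the 8 first sections was 0.53, over the 8 second sections 0.49 and over the 30 other secondary-antral oocytes 0.59. The SD between sections was below that over the 30 oocytes in 4799 genes (70.6%), a share that the added spread between libraries raises.

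The test between oocytes called 354 of 14217 genes (2.49%) at an adjusted p under 0.05 by edgeR's quasi-likelihood test with Benjamini-Hochberg adjustment, with the spread between sections as its error. At an unadjusted p under 0.05 there were 2762 genes (19.4%). Calls grew more frequent with the level, from 2.09% of the genes with a mean of 4 to 6 to 31.1% of those at 10 or above. There were 282 called genes among the 7221 with a mean of at least 4 (3.91%), for which the median SD between sections was 0.29 and the median SD of oocyte means 0.70. These values describe the genes the test picked. The highest and lowest oocyte means of a called gene lay 2.45 apart in the median on the log2 scale (range 0.83 to 6.52).

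The number of calls rested on single cells. It fell to 68 without oocyte 01 and was 509 without oocyte 09 and 900 without section 2 of oocyte 09. With the log2 reads per spike-in read as a term of the fit 155 genes were called, 144 of them among the 354, and without oocytes 07 and 09 there were 552, which held 266 of the 354. Oocyte 01 was the lowest cell for 134 called genes and the highest for 76. Oocyte 07 was lowest for 30 and highest for 74, oocyte 08 lowest for 77 and highest for 70, and oocyte 09 lowest for 55 and highest for 61. Over all 7221 genes with a mean of at least 4, oocyte 01 was lowest for 1409 and highest for 1025, and oocyte 07 lowest for 1251 and highest for 1192. Oocyte 08 was lowest for 992 of them and highest for 1074, and oocyte 09 lowest for 1472 and highest for 1559. In 211 called genes both sections of 1 oocyte lay below all 14 others, and in 138 both lay above. These counts describe genes that the test picked for such differences. The share over all genes tested is not given here, so nothing about the cells is read from them.

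**Figure D2:**
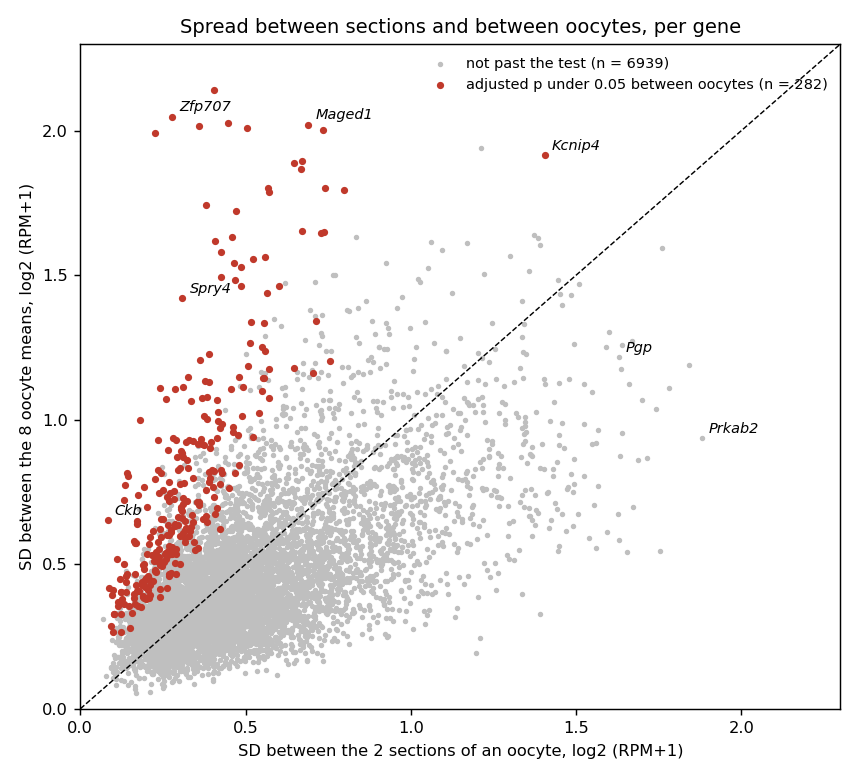
SD of the 8 oocyte means against the SD between sections of an oocyte, for each gene whose mean log2 (RPM+1) was 4 or more, with genes called between oocytes marked. Called genes had a median SD of oocyte means of 0.70 and a median SD between sections of 0.29, while Pgp and Prkab2 varied mainly between sections.

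All 3 zona pellucida genes differed between the oocytes. Beside the counts in this and the following lists, 2.49% of all genes tested were called. That share was 10.5% at a mean of 8 to 10 and 31.1% at 10 or above, and the lists were not matched for level. Zp3 (GRCm38 chr5:135980099-135988624), which encodes a zona protein, was 14.19 and 13.75 in oocyte 01, 13.37 and 13.54 in oocyte 02, 12.88 and 13.79 in oocyte 03, and 13.66 and 13.55 in oocyte 04. It was 13.27 and 13.18 in oocyte 06, 12.32 and 12.68 in oocyte 07, 12.05 and 12.24 in oocyte 08, and 12.34 and 12.62 in oocyte 09. Sections of oocytes 07 to 09 thus lay below every section of the other 5 cells. The highest oocyte mean was 3.54-fold the lowest. The SD of oocyte means was 0.64 against 0.29 between sections, and the adjusted p was 0.0031.

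Zp2, a zona protein that is cleaved after fertilization, was highest in oocyte 01 (13.47 and 13.01) and lowest in oocyte 08 (11.01 and 11.12). Zp1, which cross-links the zona filaments, was 12.22 and 12.00 in oocyte 01 and 10.26 and 10.30 in oocyte 08. Both kept oocyte 08 below all other sections. Their adjusted p-values were 0.0018 and 0.0024. The call of Zp1, Zp2 and Zp3 was kept in each of the 33 alternatives, the fits with the spike-in term and without oocytes 07 and 09 among them.

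In the subcortical maternal complex list 4 of 7 tested genes were called, and Padi6, Nlrp5 and Tle6 had the direction of the zona genes. Padi6 had the smallest adjusted p of the lists (0.00019). It fell from 13.77 and 13.37 in oocyte 01 and 13.31 and 12.94 in oocyte 04 to 11.14 and 11.53 in oocyte 08. Its SD between sections was 0.23 against 0.79 between oocyte means. Nlrp5, also known as Mater and needed for the first cleavages, was 12.29 and 12.01 in oocyte 01, 10.43 and 10.18 in oocyte 07 and 8.90 and 9.64 in oocyte 08 (adjusted p 0.00034). The sections of oocyte 01 stood above, and those of oocyte 08 below, all others for both genes. Tle6 ran from 12.60 as the mean of oocyte 01 to 11.02 in oocyte 09 (adjusted p 0.010), but lost its call with the spike-in term, without oocyte 01 and without oocytes 07 and 09. Ooep was highest in oocyte 01 (mean 11.78) but lowest in oocyte 03 (10.94), with 11.47 in oocyte 09 (adjusted p 0.024), and lost its call without oocyte 01. Khdc3, Zbed3 and Nlrp2 did not pass.

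The Obox genes ran the other way. All 5 tested members were called, and Obox6 was too low to test. Obox1 was 10.72 and 11.38 in oocyte 01, 11.67 and 11.94 in oocyte 02, 12.34 and 11.50 in oocyte 03, and 10.85 and 10.87 in oocyte 04. It was 12.14 and 12.44 in oocyte 06, 12.12 and 12.03 in oocyte 07, 12.61 and 12.25 in oocyte 08, and 12.36 and 12.41 in oocyte 09. Oocytes 01 and 04 thus lay below all other sections. The SD of oocyte means was 0.60, the SD between sections 0.30 and the adjusted p 0.0068. Obox2, Obox3, Obox5 and Obox7 had adjusted p-values of 0.0096, 0.015, 0.012 and 0.024. Obox genes are near copies of each other, and how reads that match several of them were counted is not given in the sources used here, so they are not independent values. Without oocyte 04 only Obox5 was still called, without oocyte 01 only Obox1 and Obox2, and with the spike-in term Obox3 and Obox7 lost their calls.

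Among the oocyte-secreted factors 3 of 6 passed. Oosp3 had a mean of 7.53 in oocyte 01 and 9.81 in oocyte 09 (adjusted p 0.0031), and its call was kept in all 33 alternatives. Oosp1 had 10.55 in oocyte 01 and 11.81 in oocyte 08 (adjusted p 0.028), a call that was lost in 11 of 33 alternatives, among them the spike-in term and the fit without oocyte 01. Bmp15, an X-linked growth factor for granulosa cells, had 9.79 in oocyte 01 and 11.04 in oocyte 09, with an adjusted p of 0.046 that was lost in 23 of 33 alternatives, also with the spike-in term. Its partner Gdf9 was among the steadier genes, with 13.48 in oocyte 02 and 12.80 in oocyte 09, an SD of oocyte means of 0.20 and an adjusted p of 0.16.

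**Figure D3:**
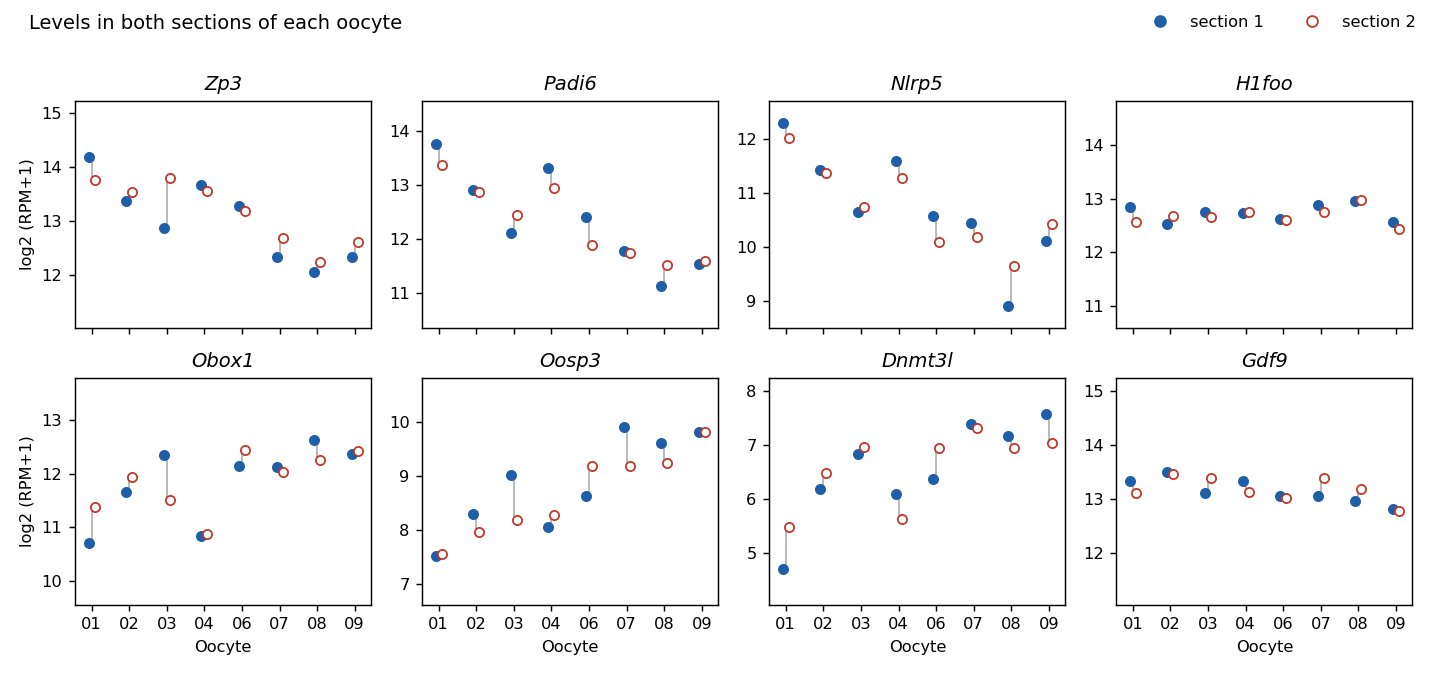
log2 (RPM+1) of selected genes in both sections of each oocyte, with section 1 and section 2 as separate points and oocytes along the axis. Zp3 and Padi6 lay highest in oocyte 01 and lowest in oocyte 08, while Obox1 lay lowest in oocytes 01 and 04.

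The called genes of meiotic maturation and of RNA storage were lowest in oocyte 01, whereas Obox1 was lowest in oocyte 04. Bub1b, a spindle checkpoint kinase, had a mean of 8.22 in oocyte 01 and 9.84 in oocyte 08 (adjusted p 0.011). Ccnb1, the cyclin of the M phase kinase, was 9.10 and 9.06 in oocyte 01, while all other oocyte means lay between 9.88 and 10.2 (adjusted p 0.022). Plat, a protease of the maturing oocyte, had an adjusted p of 0.031 that was lost in 18 of 33 alternatives. Together these were 3 of 12 tested maturation genes, and Mos, the kinase that arrests the egg at metaphase, was not among them (SD of oocyte means 0.16, adjusted p 0.38). In the list of maternal mRNA storage and decay 1 of 12 passed, Btg4, an adaptor for deadenylation of maternal mRNA, with 9.34 in oocyte 01 and 10.4 in oocyte 07 (adjusted p 0.023). The repressor Zar1 (adjusted p 0.057) and the cap-binding partner Eif4enif1 (0.97) did not pass. Ccnb1 and Btg4 lost their calls with the spike-in term and without oocyte 01, and Bub1b lost its call without oocyte 01.

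The 2 called genes of the chromatin and methylation list had opposite orders. Kdm1b, a histone H3 lysine 4 demethylase that is needed for imprints, was 9.25 and 9.46 in oocyte 01 but 7.04 and 6.92 in oocyte 08, below all other sections (adjusted p 0.0011). Dnmt3l, the cofactor of de novo DNA methylation, was 4.70 and 5.47 in oocyte 01 and 7.38 and 7.32 in oocyte 07 (adjusted p 0.013). Kdm1b kept its call in all 33 alternatives, and Dnmt3l lost it with the spike-in term and without oocyte 01. Dnmt1 and Dnmt3a did not pass, with adjusted p-values of 0.17 and 0.78. In the list of survival and surface genes 2 of 7 passed: Astl, the protease that cleaves ZP2, with 10.28 as the mean of oocyte 01 and 8.52 of oocyte 08 (adjusted p 0.0038), and Izumo1r, the sperm receptor Juno, with 8.63 in oocyte 01 and 9.80 in oocyte 07 (adjusted p 0.031, lost in 16 of 33 alternatives).

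Heat shock chaperones had the smallest median SD between sections of the lists (0.15). Hsph1, a co-chaperone of the HSP70 system, was 9.51 and 9.36 in oocyte 01, 10.00 and 9.61 in oocyte 02, 8.21 and 8.25 in oocyte 07 and 7.78 and 7.77 in oocyte 08. Its SD between sections was 0.13 and the SD of oocyte means 0.72 (adjusted p 0.00043). Both sections of oocytes 07 and 08 lay below all others, whereas oocyte 09, with 9.44 and 9.54, did not. Hspa8, the constitutive HSP70, was highest in oocyte 01 (11.75 and 11.71) and lowest in oocyte 09 (10.37 and 10.47), with an adjusted p of 0.0016. Reads of the small nucleolar RNA Snord14e, which lies inside Hspa8, cannot be set apart from it. Hsp90aa1 had an adjusted p of 0.0047 that was lost with the spike-in term. These were 3 of 8 tested chaperones, and of the immediate early genes 0 of 5 passed, with none of the 5 under an unadjusted p of 0.05.

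The remaining lists gave 0 to 2 calls each, beside 2.49% of all genes tested. None of the 4 Oogenesin genes, 6 early oocyte transcription factors, 7 tested genes of meiotic prophase and 11 tested granulosa markers was called, although 3 Oogenesin genes, 3 of the transcription factors, 2 of the prophase genes and 3 of the granulosa markers had an unadjusted p under 0.05. The theca, blood and endothelial markers gave 0 of 3, 0 of 7 and 0 of 3, with 0, 4 and 1 genes under an unadjusted p of 0.05. DESeq2's likelihood ratio test, which called many more genes in all, called 3 Oogenesin genes, 2 of the transcription factors, 2 prophase genes, 3 granulosa markers and 1 endothelial marker. Of the 13 mitochondrial mRNAs only mt-Nd1 passed (adjusted p 0.039). However, 8 of them had an unadjusted p under 0.05, beside 19.4% of all genes tested. DESeq2's likelihood ratio test called 7 of these mRNAs, and the fit with the spike-in term 3. Among the ribosomal protein genes 2 of 82 tested passed, Rps23 (adjusted p 0.039) included, beside 2.49% of all genes tested. Calls grew with the level, to 10.5% of genes with a mean of 8 to 10, and this list was not matched for it. The calls of mt-Nd1 and Rps23 were lost in 16 and 19 of 33 alternatives. Over the lists the median SD of oocyte means was 0.64 for the zona genes, 0.61 for Obox, 0.53 for the subcortical maternal complex and 0.28 for ribosomal proteins, beside 0.40 over all genes with a mean of at least 4. It was 0.88 for the 2 granulosa markers and 0.63 for the 3 prophase genes at this level, whose median SDs between sections were 1.02 and 0.69 and which gave no call.

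**Figure D4:**
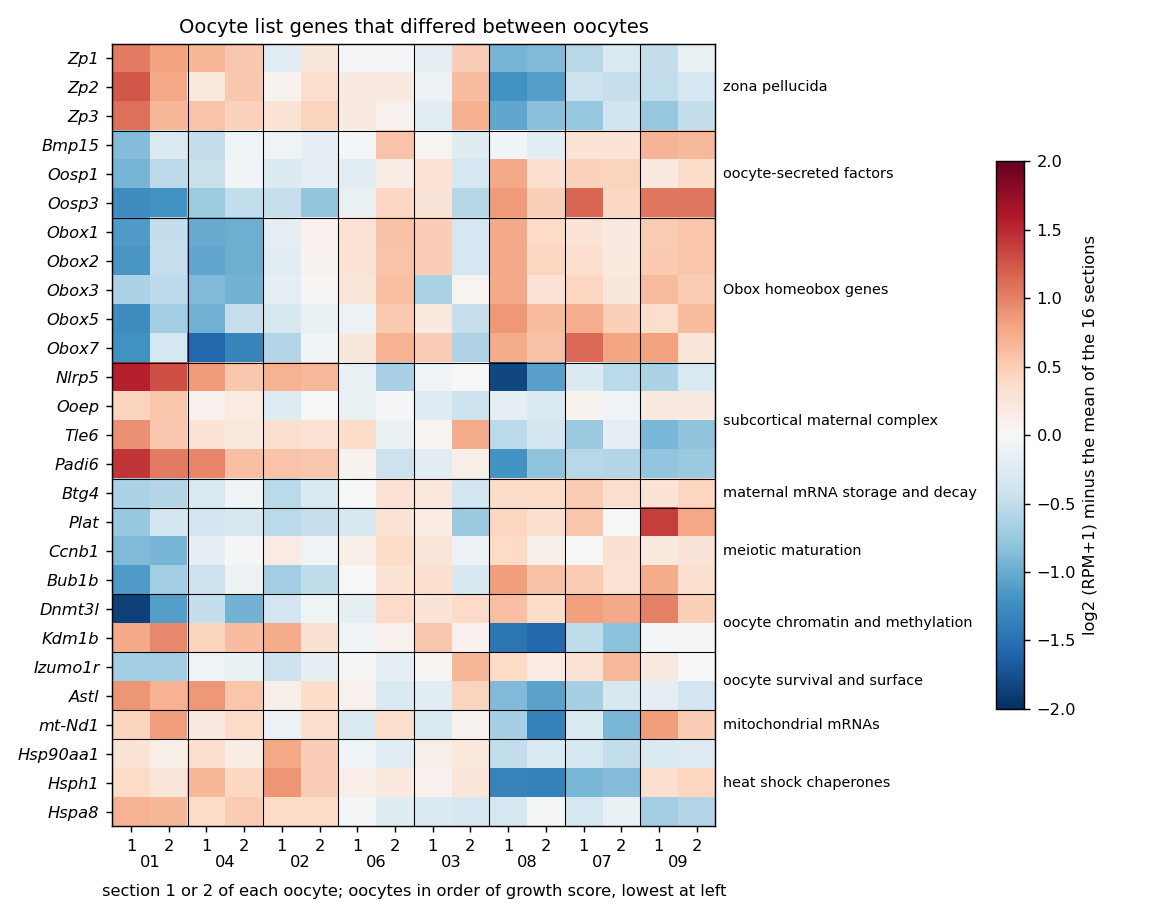
Level of the called list genes, ribosomal protein genes left out, in each of the 16 sections relative to the mean of the gene in log2 (RPM+1), with oocytes in order of growth score and the sections of an oocyte side by side. Zp1, Zp2, Zp3, Padi6 and Nlrp5 were above their mean in oocyte 01 and below it in oocytes 07 and 08, and the tested Obox genes and Dnmt3l had the opposite order. The score that orders the oocytes holds Obox1, Obox2, Obox5, Oosp1 and Oosp3, so the rise of these genes along it is partly built in.

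The same contrast could be looked for in cells from other captures. Over the 30 other secondary-antral oocytes, which share the amplification method and vary in depth, the correlation of Zp3 was 0.94 with Zp2, 0.83 with Padi6, 0.83 with Nlrp5 and 0.66 with Zp1. It was -0.61 with Obox1, -0.65 with Oosp1 and -0.69 with Bub1b. Over the 8 serially sectioned oocytes the corresponding values were 0.97, 0.96, 0.92, 0.95, -0.81, -0.97 and -0.94. These genes were called over the same 8 cells, so the latter values are not a separate result. The 30 oocytes spanned more, with an SD of 2.30 for Obox1 against 0.60 for the 8 oocyte means. The part of that wider range in the correlations was not tested. All values share the total that each library was scaled to. Bmp15 had -0.35 with Zp3 over the 30 oocytes and -0.65 over the 8. Gdf9, which was not called, had 0.05 and 0.54.

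A growth score was formed from genes chosen in the other oocytes only, as the mean of 50 genes higher in secondary-antral oocytes minus that of 50 genes higher in primary oocytes. It ran from -4.36 to -0.31 in the 14 primary oocytes (median -3.37) and from 0.51 to 8.35 in the 30 secondary-antral oocytes (6.94). The 16 sections lay between 6.39 and 8.33 (median 7.50). As means over both sections, oocyte 01 had the lowest score, with 6.39 and 6.57, and oocyte 09 the highest, with 8.03 and 8.33. The sections of oocyte 01 lay below all others, and the intraclass correlation of the score was 0.828, the highest of the 7 library values compared. Of the 50 genes higher in secondary-antral oocytes 14 were called, among them Obox1, Obox2, Obox5, Oosp1, Oosp3 and Omt2b, and of the 42 tested genes higher in primary oocytes only Maged1. At a mean of at least 4 there were all 50 of the former but only 2 of the latter, and calls grew with the level, so the counts of both sets are not compared.

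The score moved with reads per spike-in read. Over the 8 oocytes its correlation with log2 reads per spike-in read was r = -0.68 and rho = -0.74, and r was -0.81 without the 2 oocytes farthest from the median ratio. Oocytes 07 and 09, with scores of 8.02 and 8.18, had the lowest ratios. The part of RNA input or of detection in the score was not tested. Oocyte 01, at the other end of the score, had 125 and 97.7 reads per spike-in read, within the range of the remaining cells. Of the 282 called genes with a mean of at least 4, 66.3% were more than 1 log2 unit higher in secondary-antral than in primary oocytes, against 40.0% of the 7221 genes. For genes more than 1 log2 unit higher in primary oocytes the shares were 9.22% and 9.39%. Calls grew with the level, and these sets were not matched for it.

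**Figure D5:**
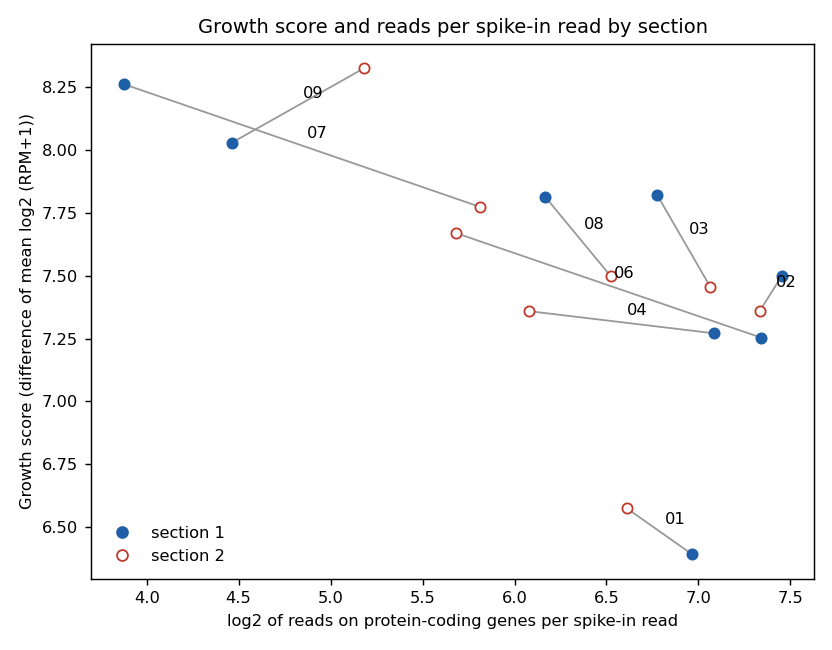
Growth score against log2 reads per spike-in read for the 16 sections, numbered by oocyte with both sections of a cell joined. Oocyte 01 lay lowest in score (6.39 and 6.57). As means over both sections, oocytes 07 and 09 had the lowest ratios and the highest scores (8.02 and 8.18), while section 2 of oocyte 07 scored 7.77.

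Some genes were nearly missing from both sections of 1 oocyte and plain in all others. Zfp707 (GRCm38 chr15:75969123-75975868), a zinc finger gene, had 6 and 8 reads in oocyte 08, 138 and 87 in oocyte 07 and 373 to 2740 in the other 12 sections. On the log2 scale it was 0.99 and 1.17 in oocyte 08, 4.98 and 4.40 in oocyte 07 and 6.18 or more elsewhere (adjusted p 0.00012). Maged1, an X-linked gene of the melanoma antigen family (chrX:94535474-94542143), had 0 reads in both sections of oocyte 09 and 21 to 608 elsewhere (adjusted p 0.0034). Aprt, which salvages adenine, had 0 and 1 reads in oocyte 09 and 71 to 521 elsewhere (adjusted p 0.013), a call that was lost without oocyte 09.

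Oocyte 01 lacked a different set. Krt12, a keratin (chr11:99415666-99422259), had 0 and 1 reads there and 141 to 757 elsewhere (adjusted p 0.0020). Pnma5 had no read in either section of oocyte 01 and 60 to 430 elsewhere (adjusted p 0.0068), and Rgn, a calcium-binding protein of the X chromosome, was 0.23 and 0.00 there and 2.91 or more in the others (0.00044). Spry4, an inhibitor of growth factor signalling, was 2.72 and 2.77 in oocyte 01 and 5.01 to 7.37 in the other sections (0.00071). The 30 other secondary-antral oocytes had mean levels of 3.22 for Krt12, 3.29 for Pnma5, 2.91 for Rgn and 4.58 for Spry4. Without oocyte 01 the calls of Krt12, Pnma5 and Spry4 were lost, while Rgn and also Zfp707 and Maged1 kept theirs in each of 32 alternatives.

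The smallest adjusted p of all genes was that of Tuba3b, an alpha-tubulin gene (6.6e-05). It was 1.96 and 2.06 in oocyte 01, 1.92 and 2.15 in oocyte 02 and 3.47 and 3.87 in oocyte 04. All other sections were between 5.17 and 7.21, so oocytes 01, 02 and 04 did not overlap the others. Its near copy Tuba3a was also low in oocytes 01 and 02, with means of 2.89 and 2.53, and highest in oocyte 08 with 6.87, and reads of the pair may have been divided by the counting. Gm10553, a predicted gene on chromosome 1 (chr1:85100164-85100535), was 6.91 and 6.92 in oocyte 08 and 8.77 to 10.25 in the others (adjusted p 0.00011), and the nearby antisense genes Gm10552, Gm16028 and A530040E14Rik were lowest in oocyte 08 as well. Whether the counting kept strands and similar copies apart was not tested. The homeobox genes Cphx1, Cphx2 and Cphx3 were low in oocyte 01, with means of 6.03, 5.99 and 7.18, and are near-identical copies whose values are uncertain one by one. Ckb, the brain creatine kinase, agreed most closely between sections among the called genes named here, with an SD between sections of 0.08 and oocyte means from 7.38 to 9.34.

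Other oocyte RNAs varied little over cells and sections. H1foo, the oocyte linker histone, had a mean of 12.71, an SD of oocyte means of 0.14 and an SD between sections of 0.09 (adjusted p 0.19). Gja4, the connexin that joins oocyte and granulosa cells, had 0.17 and 0.12. The smallest spreads over all 16 sections among genes with a mean of at least 8 included Trip12, a ubiquitin ligase, at 8.80 to 9.24, Bud31, a splicing factor, at 8.73 to 9.21, and Stt3b, of the oligosaccharyltransferase, at 8.65 to 9.11.

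No gene passed the test of section 2 against section 1. With oocyte as a block, edgeR's quasi-likelihood test called 0 of 11776 genes (0%), and 332 (2.82%) had an unadjusted p under 0.05. DESeq2's Wald test called 1 gene, Tek, a receptor for angiopoietins. Tek was lower in section 2 in 8 of 8 oocytes, by 1.55 ± 0.15 (SE, n = 8 pairs) on log2 (RPM+1), and had an edgeR unadjusted p of 0.00056 and an adjusted p of 1. Fth1, the ferritin heavy chain, was higher in section 2 in 8 of 8 oocytes by 0.42 ± 0.10 (adjusted p 1), and Emc6 by 0.50 ± 0.08 (adjusted p 1). Agps, of ether lipid synthesis, was lower in section 2 in all 8. Simulated 2-fold changes in 200 genes were recovered in 62% at this design, and 4-fold changes in 98%, so differences of 2-fold and less, and some above it, could be missed. The changed genes were drawn from levels of about 4 or more, so recovery at lower levels was not tested.

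Library values were compared between section 2 and section 1 in the same way. Section 2 minus section 1 was 0.21 ± 0.60 (SD, n = 8) for log2 reads, 89.4 ± 955 for genes detected, 0.020 ± 1.09 for log2 reads per spike-in read and -0.040 ± 0.33 for the growth score. For the granulosa marker sum it was -0.11 ± 0.90, for mitochondrial mRNAs 0.12 ± 0.37 percent of reads and for ribosomal protein mRNAs -0.034 ± 0.66 percent. By exact two-sided paired permutation tests over the 8 oocytes the adjusted p was 0.98 for all 7 values, and the smallest p that 8 pairs allow is 0.0078.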

How the data were processed

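Gene counts of the 16 section libraries were used as the authors deposited them, from 1 table that also holds bulk and pooled granulosa cells. Per the study's methods and the submitters' processing notes, the authors trimmed reads with fastp 0.20.0 and cutadapt 1.16, aligned them to GRCm38 with HISAT2 2.1.0 and used HTSeq 0.10.0 to count reads within 10 kb of annotated 3′ ends, so a level depends on the annotated end. Amplified reads are not independent molecules, and the median read-count error was below the median SD between sections in each range of level.

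The 22060 protein-coding genes were scaled to RPM by their own total and given as log2 (RPM+1). Counts were tested with edgeR 4.0.16 (TMM, filterByExpr, quasi-likelihood F-test, Benjamini-Hochberg, threshold 0.05) in R 4.3.3, between oocytes with all 16 libraries and no further term, and between sections with oocyte as a block. DESeq2 1.42.0 was an alternative. Both fits were checked on simulated counts with 200 changed genes, and between oocytes 43%, 98.5% and 100% of 2-, 4- and 8-fold changes were recovered. The changed genes were drawn from levels of about 4 or more. Between oocytes the change was set in several cells at once, so recovery of a change in 1 cell was not tested. No sections of an oocyte held near-equal counts, and none was counted as a repeat. The section number did not pair libraries of different oocytes: the 28 correlations of section differences ran from -0.12 to 0.083.

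Named genes were the members of 20 lists, the 20 called genes with the smallest adjusted p and the 10 with the largest SD of oocyte means, the 10 genes with the largest section differences at a mean of at least 6 and at 4, the 5 with the smallest section p in each direction, the 10 steadiest genes and those at the ends of the intraclass correlation. Members and lists were chosen with earlier results of these data known. Sections are of 8 cells from animals that the labels do not tell apart, and sections were amplified in separate tubes, so p-values concern these 8 cells and the spread between sections may be technical. Values of some genes are not reported here.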

Additional observations from a re-analysis of the deposited data

Results flagged for a closer look

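The mean over both sections was examined in 57 named values for 1 oocyte far from the other 7, by the gap to its nearest neighbour over the whole range, with a critical value of 0.526. Chance flags about 1 in 20 sets that were not picked for their spread. Here 12 of 57 were found, among genes partly named for their spread between oocytes. All 12 are genes called between oocytes, so that rate does not apply to them. Cphx1, Cphx2 and Cphx3 are near-identical copies and not separate flags. In 8 of the 12 the cell was oocyte 01. Its means in log2 (RPM+1) were 0.113 for Rgn, 0 for Pnma5, 0.124 for Krt12, 2.74 for Spry4, 9.08 for Ccnb1 and 6.03, 5.99 and 7.18 for Cphx1, Cphx2 and Cphx3, and the other oocytes began at 3.54, 3.23, 5.35, 5.52, 9.88, 7.64, 7.63 and 8.71. In oocyte 08, Zfp707 had a mean of 1.08 and Gm10553 of 6.92, with the next oocytes at 4.69 and 8.94. In oocyte 09, Maged1 was at 0 and Aprt at 0.127, with the next oocytes at 3.69 and 4.34. All 12 were the lowest cell, and in each of them both sections lay below all others.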

How the results depend on the processing

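Beside the 354 genes differing between oocytes, 2816 were called by DESeq2's likelihood ratio test, 2953 without a filter on low counts, 155 with the spike-in ratio as a term and 552 without oocytes 07 and 09, the last 2 alternatives chosen after seeing the data. Leaving out 1 section or both sections of 1 oocyte gave 68 (oocyte 01) to 900 genes (section 2 of oocyte 09), and the count moved by over 1.5 times without either section of oocytes 01, 02, 04, 08 and 09 and section 2 of oocyte 07, and without both sections of oocyte 01, 02 (211) or 08 (218). With the section number as a block 241 genes were called, 234 of them among the 354. Counts between sections were 0 in all alternatives but DESeq2's Wald test, which called 1 gene. The range of the growth score over oocytes was 1.70, and 1.44 with 25 genes, 2.00 with 100 genes in each direction and 1.29 on log2 (RPM+10). The median SD between sections was 0.31 at a mean of at least 6. The causes were not tested. Of 1802 values of single named genes under an alternative, 1618 kept their side of the threshold, 183 lost the call, 1 gained it and 0 changed direction. Small changes could be missed, since 43% of simulated 2-fold changes between oocytes were recovered, and thinning to 1 depth gave 370 calls.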

Other observations

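Outside the protein-coding genes, 16.4% to 19.7% of the reads of a section lay on other annotated genes. When all genes of the table were fitted together, 321 genes were called between oocytes, and 52 of them were such genes. How many such genes were tested is not given here, so no share is read from this count. Some, like Snord14e inside Hspa8, overlap coding genes and are not separate results. Gm14635, a predicted gene outside the protein-coding class, had a mean of 1.81 in oocyte 01 and of 4.49 to 6.89 in the other cells in log2 (RPM+1). Of the RNAs that are retained in the nucleus, Malat1 was 0.00 and 4.60 in oocyte 07 and at most 0.77 in all sections of oocytes 08 and 09, while oocytes 01 to 03 had 3.97 to 5.81, and its adjusted p between oocytes was 0.21. Meg3, under the 1 of its 2 gene IDs with reads, reached 5.68 and 0.00 in the sections of oocyte 09, with an intraclass correlation of -0.42.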
